A study of Homo sapiens with 8 samples.

Results

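The comparison concerned the 4 days in which methylation was lost fastest after DNMT1* was withdrawn from HUES64 cells, read as the library of day 2 against the library of day 6. HUES64 is an established cell line of human embryonic stem cells, with DNMT1 knockout given in the labels as the genotype. Both libraries, and the other 6 of the series (days 0, 1, 3, 4, 5 and 7 of withdrawal), come from this genotype, so no wild-type or unwithdrawn control stands beside them on the same day. The assay was RRBS, reduced representation bisulfite sequencing, in which fragments cut at CCGG sites are read, so that CpG-rich DNA is favoured. Members were autosomal CpGs with at least 20 reads in both libraries. They numbered 2459179 of the 3075702 autosomal CpGs listed on day 2 or day 6, out of 3209182 CpGs listed in any of the 8 libraries. The level of a CpG is its methylated share of reads, and the share left is the mean day 6 level divided by the mean day 2 level over the same CpGs.

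DNMT1 is the maintenance methyltransferase: after replication it restores methylation on the new strand by copying the pattern of the parental one. When it is missing, methylation is diluted with each round of replication unless the de novo enzymes DNMT3A and DNMT3B put it back. Embryonic stem cells express both de novo enzymes, which are known to act on CpGs without a methylated template. DNMT1* is an exogenous copy of the enzyme that maintains a line lacking its own, and its withdrawal starts the loss. In human cells, densely packed CpGs in CpG islands are mostly unmethylated and isolated CpGs mostly methylated.

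Median depth over members was 49 reads on day 2 and 44 on day 6. Each day has 1 library, so no difference between days could be tested, and the errors below are 95% intervals or standard errors (SE) of counting only. Reads carried no stated molecular identifiers and may repeat a molecule, so these errors are lower limits. A level is a mean over all cells of a library, and loss in every cell cannot be told apart from complete loss in some cells. CpGs that carried no methylated read on days 0 and 1 (431890 members with 20 or more reads there) read 0.131% on day 2 and 0.110% on day 6, which sets the background.

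Methylation of the members fell from 46.0% on day 2 to 13.7% on day 6, a loss of 32.3 points. The share left was 29.7% (95% counting interval 29.7 to 29.7%). Spread evenly over the 4 days, 73.8% of the level was left each day, and the level halved every 2.28 days. Single autosomes kept between 29.2 and 30.2%. Of the 1687207 members at 20% or more on day 2, 99.9% were lower on day 6 and 1710 were not. In this comparison 91.5% of those CpGs were more than 2-fold lower on day 6 than on day 2.

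The interval was the fastest of those the deep libraries allow. Over the 1621995 members that also had 20 reads on days 0, 1 and 7, 94.8% of the level was left from day 0 to day 1 and 88.3% from day 1 to day 2. From day 2 to day 6, 73.7% was left per day, and from day 6 to day 7, 83.7%. In points, 7.83 were lost per day between days 2 and 6, against 2.75 and 5.91 on the first and second day and 2.14 on the last. Between days 2 and 6 the loss was uneven. Over the pooled reads of all members, 45.9% were methylated on day 2, and the next 4 libraries read 32.2, 23.3, 18.9 and 13.7%. Day 5 kept 81.2% of the day before, whereas days 3, 4 and 6 kept 70.1, 72.3 and 72.2%. The libraries of days 3 to 5 held 11271265 to 13617733 reads over the members, against 143753740 and 129482745 on days 2 and 6, and whether their depth moved these steps was not tested.

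The share left varied little with the level at which a CpG entered the interval. Members at 10 to 20% on day 2 (31841 CpGs) kept 33.9%, and those at 20 to 30% kept 33.6%. The share then declined through 32.4, 31.4 and 30.2% in the next 3 bins to 29.1% at 60 to 70% and 28.9% at 70 to 80%, the bin with the most CpGs above 10% (545584). It rose again to 29.96% at 80 to 90% and 31.6% at 90 to 100% (25206 CpGs). The day 2 level itself thus spanned 14.8 to 92.4% over these 9 bins while the share left stayed between 28.9 and 33.9%.

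The higher share at the low end shrank when bin and level came from different reads. A CpG that reads low on day 2 by counting error enters a low bin with a day 2 level that is too low. With the day 2 reads of each CpG divided at random into 2 equal parts, 1 part for the bin and the other for the level, the 10 to 20% bin kept 30.2% (SE 0.13) and the 90 to 100% bin 33.2% (SE 0.04). The level in the other part averaged 19.1% for the 10 to 20% bin. It averaged 72.7, 76.3 and 78.9% for the bins of 70 to 80%, 80 to 90% and 90 to 100%. These bins thus lay much closer together in level than their bounds. The lowest share was then 28.6%, at 60 to 70%, with 28.6 to 29.4% in the bins from 20 to 60%, so the 10 to 20% bin still stood above these by more than its counting error. Bins formed from the day 1 library gave a like curve, with 30.9% at 10 to 20%, 27.9% at 70 to 80% and 32.2% at 90 to 100%. The order of the 10 to 20% and 90 to 100% bins therefore turned with the method, while the 10 to 20% bin stayed above the bins from 20 to 70% in all 3. In all 3, the share rose from the 70 to 80% bin to the 80 to 90% bin and again to the 90 to 100% bin.

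**Figure D1:**
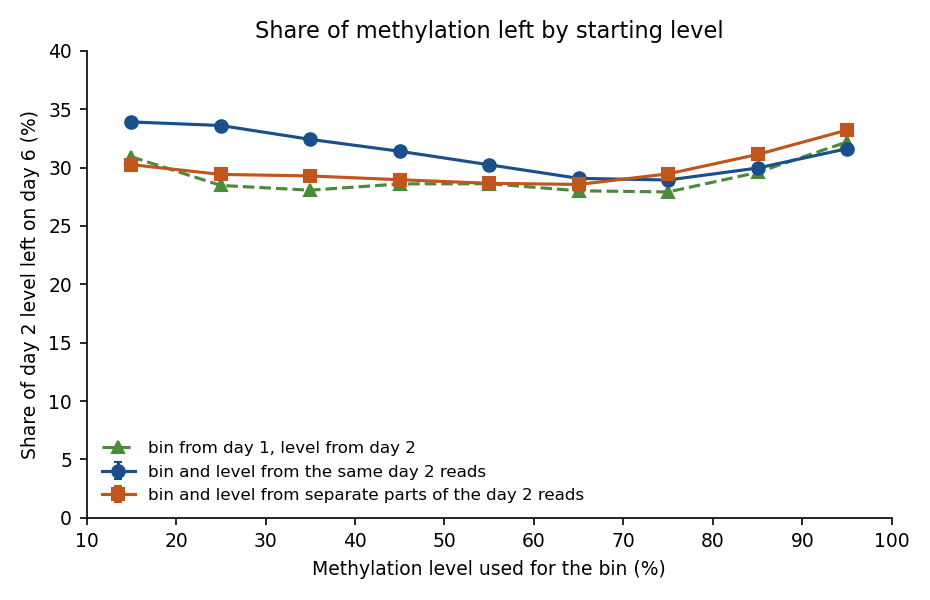
Share of the day 2 level left on day 6 (y axis, percent) for CpGs in 10-point bins of starting methylation (x axis, percent), with the bin taken from the same day 2 reads, from separate parts of the day 2 reads, or from day 1. Bars are 95% counting intervals where drawn. All 3 curves lie between 27.9 and 33.9%, differ most at the low end and rise above 80%.

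Members below 10% on day 2 numbered 740131, or 30.1% of all, and averaged 0.478% on day 2 and 0.292% on day 6. Their share left was 61.1% as measured, 52.5% after subtraction of the background of each library and 38.6% with subtraction and separate parts of the reads. On day 6, 90.4% of them had no methylated read. They lay in dense DNA, with a median of 42 listed CpGs per 1-kb tile, against 7 to 12 in the bins above.

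Single CpGs of the same day 2 bin differed widely on day 6. CpGs at 70 to 80% on day 2 had a median of 20.5% on day 6, with 10% of them at or below 11.1% and 10% at or above 33.3%. The standard deviation (SD) in that bin was 9.21 points, and the SD from counting error on day 6 was 6.02. Subtraction of the squared SDs left an SD beyond counting of 6.96 points, or 32.2% of the mean. The SD beyond counting grew from 5.88 points at 50 to 60% to 8.92 at 80 to 90% and 12.04 at 90 to 100%. The mean day 6 level rose as well, and relative to it the SD was 35.3, 35.7 and 41.2% in these bins. It was larger at the low end, with 68.7% of the mean at 10 to 20%. A small set still stood at 50% or more on day 6, a fixed limit that CpGs starting higher pass with a smaller share left. It held 9.42% (2374) of the CpGs at 90 to 100% on day 2. Of those at 80 to 90% it held 3.29% (8571), and of those at 60 to 70% it held 0.406%. These fractions do not compare rates of loss. The mean shares left in these bins were 31.6, 29.96 and 29.1%. At the other end, 1073 CpGs at 70 to 80% on day 2 had no methylated read on day 6, which at 20 reads allows a level of up to 15.0%.

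**Figure D2:**
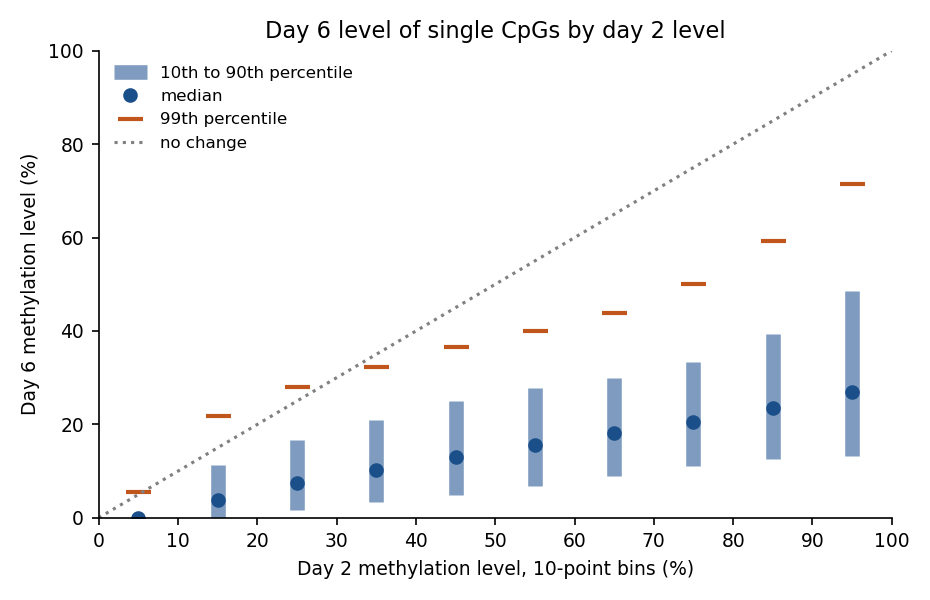
Day 6 methylation level of single CpGs (y axis, percent) in each 10-point bin of the day 2 level (x axis, percent). Dots are medians, bars run from the 10th to the 90th percentile and dashes mark the 99th percentile. Medians reach 26.9% in the highest bin, where the 99th percentile is 71.4%, and only the 99th percentiles of the 3 bins below 30% lie above the dotted line of no change.

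CpG-dense DNA lost more of its methylation than sparse DNA. Density was the number of CpGs listed in the 1-kb tile on day 2 or day 6, which depends on RRBS coverage as well as on sequence. Members in tiles with 1 to 4 listed CpGs went from 63.8 to 19.03% and kept 29.8% (SE 0.01). Tiles with 5 to 9 and 10 to 19 listed CpGs kept 30.2 and 29.9%, so the share did not fall up to 19 listed CpGs. It fell to 28.7% with 20 to 39, 27.3% with 40 to 79 and 25.6% (SE 0.20) with 80 or more, where the level went from 4.40 to 1.13%. The most sparse and most dense classes differed by 4.20 points (SE 0.20).

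Dense tiles hold few methylated CpGs, so classes were also compared at equal starting levels. With every class weighted to the same mix of day 2 levels above 10%, tiles with 1 to 4 listed CpGs kept 29.9% and those with 80 or more kept 23.7% (SE 0.14, 5028 CpGs). At 70 to 80% on day 2 the share left was 29.1% in each of the 3 sparse classes, 28.5% with 20 to 39 listed CpGs, 27.0% with 40 to 79 and 24.2% (SE 0.20, 1442 CpGs) with 80 or more. The gap was wider at lower levels. Among CpGs at 30 to 40% on day 2, tiles with 1 to 4 listed CpGs kept 34.3% and tiles with 80 or more kept 21.0% (SE 0.77, 265 CpGs). Those bins carry the counting error described above, at median depths of 46 and 50 reads on day 2 in the 2 classes over all levels. At 60 to 90% on day 2, tiles with 80 or more listed CpGs kept 24.3, 24.6 and 23.9% at 20 to 39, 40 to 79 and 80 or more day 2 reads. Tiles with 1 to 4 kept 29.4, 29.6 and 28.5% at these depths. Over all levels, the difference between these classes was 3.14 points (SE 0.20) with at least 50 reads in both libraries. How far depth enters the difference was not tested. Across single autosomes, with members at 10% or more, the class of 1 to 4 listed CpGs ranged from 29.1 to 30.1% and that of 40 to 79 from 24.9 to 28.5%, so the 2 ranges did not overlap. The class of 80 or more ranged from 18.5 to 28.8%.

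**Figure D3:**
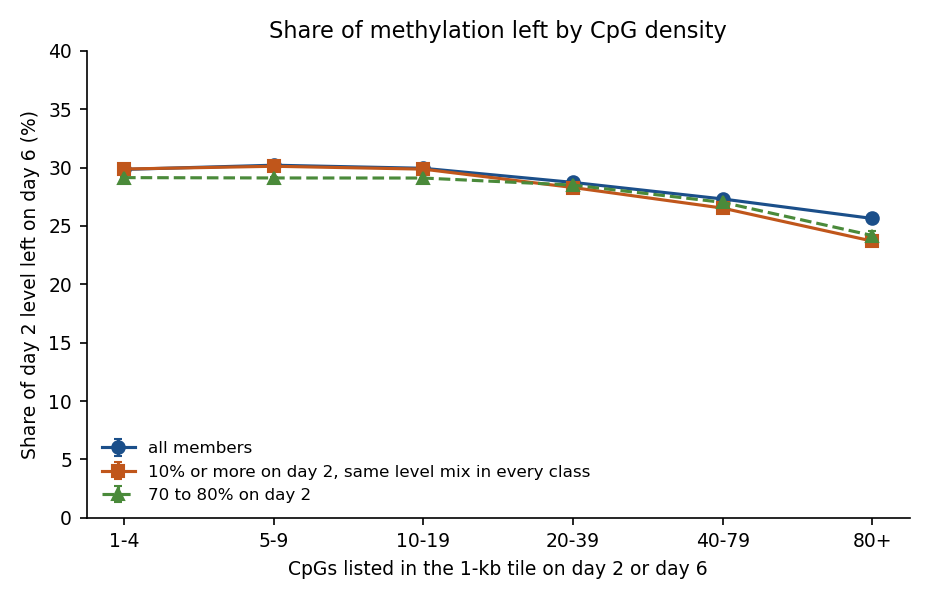
Share of the day 2 level left on day 6 (y axis, percent) by the number of CpGs listed in the 1-kb tile (x axis, 6 classes), for all members, for members at 10% or more weighted to 1 mix of day 2 levels, and for members at 70 to 80% on day 2. Bars are 95% counting intervals. The curves are flat up to 19 listed CpGs and fall to 23.7 to 25.6% at 80 or more.

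Distance to the nearest listed CpG, counted between starts, gave a curve with a peak. Like density, this distance depends on RRBS coverage as well as on sequence. Unlisted CpGs may lie closer, so a long distance does not show that a CpG is isolated. Members with a neighbour at 2 to 3 bp kept 27.8% (453672 CpGs, 26.2% methylated on day 2), those at 4 to 5 bp 28.6% and those at 6 to 9 bp 30.2%. The highest share was at 10 to 19 bp, with 31.4%. It came down to 29.9% at 20 to 39 bp and stood at 28.8 to 29.0% from 40 bp upward, where CpGs started at 63.7 to 67.2%. Equal weights over day 2 levels changed these values little, from 27.4% at 2 to 3 bp to 31.1% at 10 to 19 bp. The difference between 10 to 19 bp and 2 to 3 bp was 3.59 points (SE 0.03), and 1.23 points (SE 0.04) with at least 50 reads in both libraries.

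Among CpGs at 60 to 90% on day 2, immediately adjacent ones, 2 bp apart and so forming CGCG, kept the least of all distances from 2 to 60 bp. They kept 25.9% (65096 CpGs), whereas CpGs with the nearest neighbour at 3 bp kept 29.1%. With at least 50 reads in both libraries, adjacent CpGs kept 27.3% (14488 CpGs) and those at 3 bp 29.1%. This order did not hold at 30 to 50% on day 2, where adjacent CpGs kept 29.99% (19060 CpGs) and those at 3, 5 and 11 bp kept 25.8, 26.6 and 26.5%. Nor did it hold at 60 to 90% for spacings found under 100 times among listed CpGs, with 35.6% at 2 bp (531 CpGs) against 29.0% at 10 to 19 bp. The values that follow for adjacent CpGs are at 60 to 90% on day 2. The share left was 25.96% where the neighbour lay to the left and 25.91% where it lay to the right (SE 0.05 each). CGCG reads the same on both strands and left and right are genome coordinates, so these values could hardly differ. The 1320 CpGs with a neighbour at 2 bp on both sides, the middle of a run of 3, kept 23.8% (SE 0.21).

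At that level the low share of adjacent CpGs went with the distance to the nearest listed neighbour on the other side. Unlisted CpGs may lie closer there as well. With that neighbour at 2 to 9 bp they kept 24.7%, at 10 to 19 bp 25.8%, at 20 to 49 bp 27.7%, at 50 to 99 bp 28.6%, and at 100 bp or more 29.8% (4345 CpGs). CpGs with no listed CpG within 20 bp on either side kept 29.2%. For CpGs whose nearest neighbour lay at 3 to 9 bp, the share was likewise lowest, at 28.0%, when the other side also held a CpG within 9 bp, but it peaked at 30.8% with the other side at 20 to 49 bp. At 60 to 90% on day 2, adjacent CpGs stood below those at 3 to 9 bp in all 6 density classes, by 25.7 against 29.2% in tiles with 1 to 4 listed CpGs, 23.4 against 27.5% with 40 to 79, and 23.9 against 24.7% (SE 0.31 and 0.16) with 80 or more. In the class of 80 or more, adjacent CpGs did not stand below those at 10 to 39 bp, which kept 23.4% (SE 0.36, 397 CpGs).

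Single distances within 10 to 19 bp behaved differently at the 2 ranges of level. At 60 to 90% on day 2, the highest shares were at 10 bp (31.4%) and 8 bp (31.1%). After 2 bp the lowest were at 36 bp (26.5%, 4213 CpGs) and 58 bp (26.6%, 2235 CpGs). At this level 6777 CpGs had the nearest listed CpG at 34 bp and 1801 at 35 bp. Whether coverage makes this step was not tested. Between 10 and 19 bp, the distances of 11, 13, 14, 15, 17 and 18 bp kept 30.1 to 30.5% there, and 12 and 16 bp kept the least, 29.1 and 29.2%. CpGs at 30 to 50% on day 2 showed sharper steps and the opposite order for 12 and 16 bp: 16 bp kept 45.0% (8659 CpGs), 12 bp 39.5% and 10 bp 37.9%, while 11, 17 and 19 bp kept 26.5, 28.4 and 26.5%. There were 20072 CpGs at 10 bp and 2900 at 11 bp, but the most crowded distances, 4 bp (21372 CpGs) and 2 bp (19060 CpGs), kept 29.0 and 29.99%. In this range of levels, distances of 10 to 19 bp kept 38.8% at 20 to 49 reads but 28.8% at 50 reads or more, taking the lower of both libraries.

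**Figure D4:**
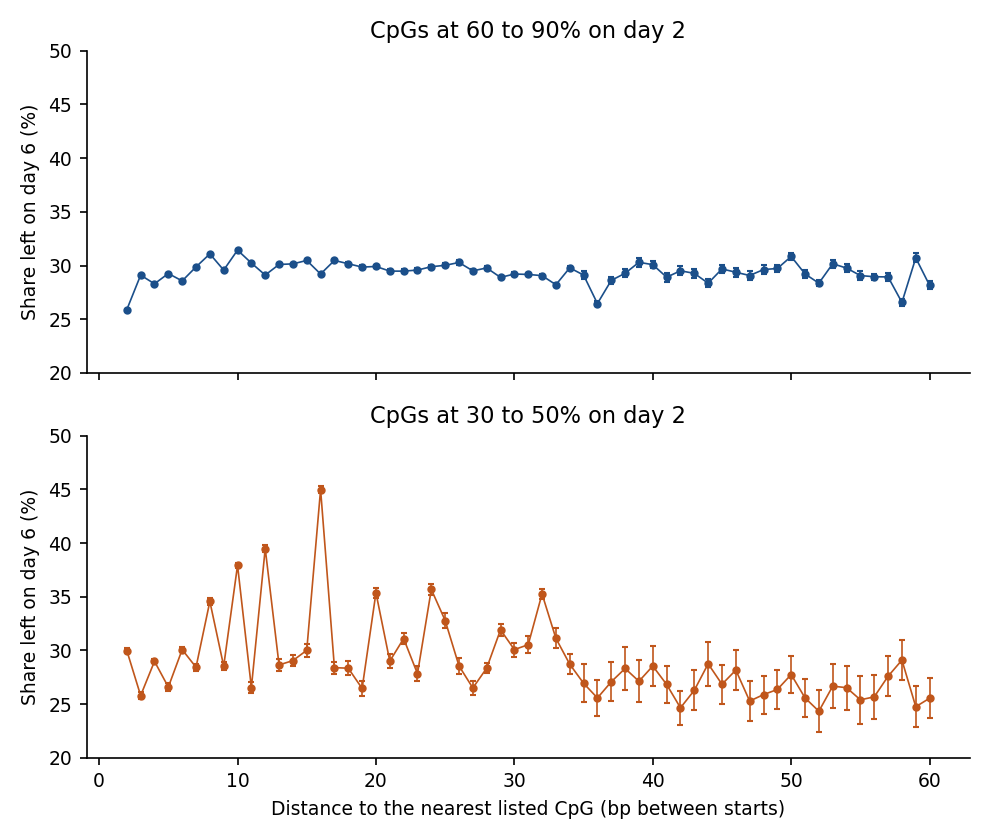
Share of the day 2 level left on day 6 (y axis, percent, from 20 to 50) by exact distance to the nearest listed CpG (x axis, bp), for CpGs at 60 to 90% (top) and 30 to 50% (bottom) on day 2. Bars are 95% counting intervals. The top curve is lowest at 2 bp, and the bottom curve has separate peaks, the highest at 16 bp with 45.0%.

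Pairs of distances, 1 to each side, separated these CpGs further. Among members at 30 to 50% on day 2, the spacing of 10 and 89 bp was found at 1583 CpGs on all 22 autosomes, and they went from 43.1 to 24.1%, a share left of 55.8% (SE 0.50). The spacings of 20 and 24 bp and of 8 and 24 bp kept 41.01 and 40.9% (1496 and 1438 CpGs). The spacing of 10 and 22 bp, with the same nearest distance as the first, kept 29.0% (3088 CpGs), and the most common spacing, 2 and 4 bp, kept 28.6% (4959 CpGs). No repeat annotation was used, and whether these CpGs lie in repeated DNA was not tested. For spacings found under 100 times among listed CpGs, a limit chosen after the values were seen, distances of 10 to 19 bp kept 29.3% (143879 CpGs) and distances of 2 to 3 bp 33.2% (12159 CpGs), the reverse order. Short spacings are seldom rare, so the second value rests on 12159 of the 453672 CpGs at 2 to 3 bp. In tiles with 80 or more listed CpGs, the difference between 10 to 19 and 2 to 3 bp was -0.20 points (SE 0.61).

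Neighbouring CpGs were alike in how much they kept. For members at 50% or more on day 2, the day 6 level minus the mean of its 2-point bin of day 2 level was compared within pairs. The Pearson correlation was 0.517 over 413291 pairs at 2 to 9 bp and 0.323 at 10 to 39 bp, distances at which both CpGs can lie on the same reads and share their counting error. It was 0.133 at 40 to 99 bp, 0.162 at 200 to 499 bp (2228653 pairs), 0.129 at 1000 to 1999 bp, 0.0582 at 5000 to 9999 bp and 0.0212 at 10000 to 50000 bp. Pairs share the libraries and each CpG enters many pairs, so the values are descriptions across CpGs. Each CpG was paired only with the next 40 such CpGs, so pairs at long distances come more from stretches with few of them. Within that limit, the correlation was similar from 40 bp to 2 kb and small beyond 10 kb. On a coarser scale, 2212 windows of 1 Mb with 200 or more such CpGs kept a median of 29.6%, with 5% of windows below 27.1%, 5% above 31.4% and a full range of 20.3 to 33.6%.

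**Figure D5:**
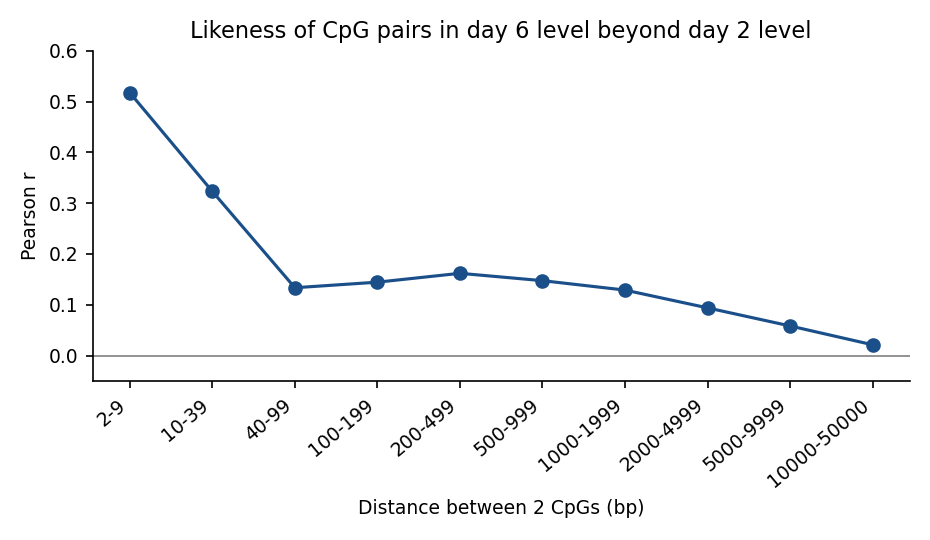
Pearson correlation (y axis) of the day 6 level beyond that given by the day 2 level, over pairs of CpGs at 50% or more on day 2, by the distance between them (x axis, bp, unequal classes). Pairs are at most 40 such CpGs apart. It falls from 0.517 at 2 to 9 bp to 0.133 at 40 to 99 bp, stays between 0.129 and 0.162 up to 1999 bp and reaches 0.0212 beyond 10 kb.

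Regions that kept or lost most were then picked among 34848 autosomal 1-kb tiles with at least 10 members and a pooled day 2 level of 50% or more. Of these tiles, 99.7% were more than 2-fold lower on day 6 than on day 2. The median tile kept 29.2%, and 10% of tiles kept under 21.6% and 10% over 36.6%. The SD between tiles was 6.12 points, against a median counting SE of 2.23. The 5 highest and 5 lowest were chosen by the values given, so these are descriptions. Coordinates are of build hg19. No annotation of that build was used, so genes are not named.

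The tile that kept most was chr19:12816001-12817000, with 395 of 539 reads methylated on day 2 (73.3%, Wilson 95% interval 69.4 to 76.8%) and 225 of 498 on day 6 (45.2%, 40.9 to 49.6%), a share left of 61.7%. At chr9:139723001-139724000 the level went from 76.5 to 47.0% over 13 CpGs. At chr11:67053001-67054000 it went from 80.6 to 47.7%, at chr21:46900001-46901000 from 79.1 to 46.2%, and at chr16:88690001-88691000 from 70.3 to 40.7%. These 5 tiles kept 57.8 to 61.7%, and the sixth kept 57.8% as well. Days 1 and 7, which did not choose them, placed them high again. From day 1 to day 7 they kept 39.4 to 46.4%, where the median tile kept 21.6%, and all 5 lay above the 99th percentile. The 5 had 87.6% or more on day 0 and held 10 to 20 listed CpGs.

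The tile that lost most was chr3:27674001-27675000, with 229 of 418 reads methylated on day 2 (54.8%, Wilson 95% interval 49.99 to 59.5%) and 6 of 349 on day 6 (1.72%, 0.790 to 3.70%), a share left of 3.14%. This tile did not keep its place in other libraries: it read 34.0% on day 1 and 5.79% on day 7, a share left of 17.1%, at the 17.6th percentile of tiles. At chr18:77552001-77553000 the level went from 68.8 to 2.46%, at chr2:219736001-219737000 from 57.6 to 2.74%, at chr19:16394001-16395000 from 54.1 to 4.43%, and at chr2:91937001-91938000 from 67.4 to 5.63%. These 4 kept 10.1 to 10.5% from day 1 to day 7 and lay below the first percentile there. All 5 read higher on day 7 than on day 6, at 5.79 to 7.49%. They were chosen for low day 6 levels relative to day 2, so a higher reading in another library tends to follow from the choice. Whether methylation was regained was not tested. The chr2:91937001 tile read 41 of 74 methylated on day 5 (55.4%, 44.1 to 66.2%), far above its day 6 level, whereas the chr2:219736001 tile read 0 of 32. The sixth-lowest tile kept 8.41%.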

How the data were processed

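RRBS libraries of 8 days of DNMT1* withdrawal, 1 per day, were read from the deposited tables, which list per CpG the methylated and total read counts and a strand. Build hg19 is named in the submitters' processing notes. The sources used here do not name the aligner or methylation caller, nor how reads were filtered or duplicates treated. The score deposited by the authors equals 1000 times the methylated share to within 1 unit in 100% of lines and was not used. Tables were joined by position, and starts count from 1.

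Members needed 20 reads on days 2 and 6. Library means weight each CpG equally. Counting SEs of ratios came from binomial variances, and intervals of tiles are Wilson intervals. Level bins include their lower bound. Distances and densities used CpGs listed on day 2 or day 6. With 1 library per day there was no test. On simulated reads at the real depths, a share of 30% was planted. Bins were checked without those dense tiles and adjacent CpGs, which left 2139963 CpGs over all levels. Separate parts of the day 2 reads returned the 30% within 0.302 points in all 9 bins from 10% up. Bins from the same reads gave 33.3% at 10 to 20% and 28.2% at 90 to 100%. The planted day 2 levels came from the reads of days 0 and 2 combined. They lie above the real day 2 levels, so the size of the same-read error may differ in the real data. Named tiles are the 5 highest and 5 lowest shares left among tiles with 10 or more members and 50% or more on day 2. Members, classes and lists were chosen with earlier results of these data known. The planned comparison by bases beside the CpG needs an hg19 genome, which was not used here, and was not run. Python 3.11.15, numpy 2.4.6, pandas 2.3.3, scipy 1.17.1 and matplotlib 3.10.9 were used.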

Additional observations from a re-analysis of the deposited data

How the results depend on the processing

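The share left over all members was 29.7% and ranged from 27.8 to 30.2% under its alternatives. It was 29.8% with 10 reads, 29.0% with 50, 29.7% with each read weighted equally, 27.8% as the median ratio of CpGs at 50% or more, 29.98% on the X chromosome, 29.2 and 30.2% on the lowest and highest autosome, 29.8% under an upper coverage limit, 29.6% with background subtracted, and 29.6 and 29.8% for CpGs listed on the + and - strand.

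The difference between the bins of 90 to 100% and 10 to 20% on day 2, -2.29 points, turned to 2.96 with separate parts of the day 2 reads, 1.27 with bins from day 1 and 4.49 with 50 reads. It was -3.67 with 10 reads, -1.92 with background subtracted and -3.90 for spacings found under 100 times, where separate parts of the reads gave 2.15. The last pair was added after seeing the data.

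The difference between tiles with 1 to 4 and with 80 or more listed CpGs, 4.20 points, was 3.61 with shifted tiles, 6.17 with equal weights over levels, 3.14 with 50 reads and 5.87 with background subtracted. It kept its sign in all 9 alternatives.

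The difference between distances of 10 to 19 and 2 to 3 bp, 3.59 points, was 3.70 with equal weights, 3.45 with 10 reads, 1.23 with 50 reads and 3.73 with background subtracted. By density class it was 2.46, 3.59, 3.32, 2.37, 3.40 and -0.20 points, from sparse to dense. It turned to -3.84 for spacings found under 100 times, an alternative added after seeing the data. What makes the 50-read value and the rare spacings differ was not tested.

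The medians of the 5 highest and 5 lowest tiles were 54.5 points apart, 69.7 with 5 or more members per tile and 34.0 for the same tiles from day 1 to day 7. No paired analysis was possible because each day has 1 library. Leaving out a replicate was not possible for the same reason.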

Other observations

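At 60 to 90% on day 2 the share left, taken over all distances together, differed by 1 point or less between depth classes. Members at that level were put into 5 classes of about equal size by their day 2 reads. The class with 20 to 34 reads kept 29.0%, those with 35 to 44, 45 to 56 and 57 to 78 reads kept 29.1, 29.5 and 29.7%, and the class with 79 or more kept 28.7% (counting SE 0.01 to 0.02 points). Single distances moved with depth at 60 to 90%, in opposite directions. Adjacent CpGs kept 25.5% at 20 to 49 reads, taking the lower of both libraries, and 27.3% at 50 reads or more. Those at 10 to 19 bp kept 30.7 and 29.5%. At 30 to 50% on day 2 the share left differed more, with 30.5% at 20 to 49 reads against 26.5% at 50 reads or more for adjacent CpGs, and 28.7 against 25.03% for CpGs with the nearest neighbour at 40 bp or more. Recurrence of a spacing had no single direction either: members at 10% or more on day 2 kept 29.0% where their spacing was found under 100 times among listed CpGs, 31.0% where it was found 100 to 999 times and 29.6% at 1000 times or more. The excess of the middle class was larger at 30 to 50% on day 2, with 34.1% against 29.2% for rare spacings, than at 70 to 90%, with 30.5 against 28.9%.

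The 20 and 24 bp spacing and the 8 and 24 bp spacing, which kept 41.01 and 40.9% among members at 30 to 50% on day 2, lay in tiles with a median of 11 and 8 listed CpGs, and none of their 1496 and 1438 CpGs stood at 50% or more on day 6. The 10 and 89 bp spacing, which kept 55.8%, had 3 of 1583 CpGs at 50% or more and a median of 10 listed CpGs per tile.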
